A study of Mus musculus with 6 samples.

Results

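The genes described here were Mitf, Tfeb and Tfe3 of the MiT/TFE family, the pigment cell genes Dct, Tyrp1, Tyr, Pmel and Mlana, and the receptor and ligand pair Kit and Kitl. They were picked by gene symbol from the count table, where they made up 10 of 22295 genes, and all 10 had counts and were among the 21681 genes tested. The choice was made with the KO against WT difference of Mitf already known, so the values of these 10 genes between the genotypes are given as a description. Whether edgeR called them is stated beside the share of all genes called, and nothing is read from it. The gene lists set around them were also chosen with earlier results of these data known. Mitf RNA in KO libraries was at 52.4% of its WT level, with every KO library below every WT library. The pigment cell genes, at far lower levels, had overlapping WT and KO libraries, and their sum ranked the libraries in another order than Mitf did.

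RNA was sequenced from GFP-positive keratinocytes sorted by FACS from the epidermis of 3 WT and 3 KO mice bred on FVB (FVB/N in the study's methods), with 1 mouse per library. WT mice carried K19(Cre-ERT) and the mTmG reporter, and KO mice carried the same alleles with Itga3 fl/fl, the floxed gene of the integrin α3 subunit. Both genotypes were treated alike. By the sample descriptions they received tamoxifen (10 mg/ml) over 4 days at 6 weeks of age, 1 dose of the carcinogen DMBA (30 μg) at 7 weeks and then the tumor promoter TPA (12.34 μg per application) for 2 weeks. The study's methods differ on tamoxifen, with another concentration, an earlier start and topical doses in addition. Cre acts in cells that use the K19 promoter, which lie mainly in the hair bulge (HB), and the sort keeps cells that were switched to GFP and their progeny, so other skin cells are represented only by what passed this gate. The columns carry mouse numbers that the sample titles do not give, so a column could be tied to its genotype but not to a titled sample, and the libraries of each genotype are lettered a, b and c in table order, and values per library are always given in this order.

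MITF is the transcription factor that directs the melanocyte lineage, where it switches on the enzymes and structural proteins of the melanosome. TFEB and TFE3 are its close relatives. They are expressed in most tissues and drive genes of lysosomes and autophagy when they enter the nucleus. TYR starts melanin synthesis from tyrosine, while TYRP1 and DCT act later in the same pathway, PMEL builds the fibrils of the melanosome, and MLANA is a protein of the melanosome membrane. KIT is a receptor tyrosine kinase of melanocytes and mast cells, and its ligand, KITL or stem cell factor, is made by keratinocytes, among other cells. FVB mice are albino because their tyrosinase is not functional, so the coat gives no view of these genes. Mitf is transcribed from several starts, of which the most downstream is the one used in melanocytes.

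MiT/TFE factors bind E-box motifs, and the forms CATGTG and CACGTG were looked for on both strands of the RefSeq promoter windows of GRCm38.p6, from 250 bases before to 50 after each start. Windows were matched for 8 of the 10 genes (not Pmel and Mlana), 14 windows in all. CATGTG was found in 3 of these 14 windows, those of Dct, Tyrp1 and Tyr, against 14.2% of all 32851 windows. In each of the 3 it was preceded by T, and TCATGTG occurs in 3.77% of all windows. CACGTG, present in 7.15% of all windows, was in none of the 14. The sites are printed because these are the members with the letters that MITF binds, 5′ to 3′ on the strand of the gene, with the motif in capitals. CACATG in the distal Dct site is CATGTG read on the opposite strand, and the a that follows it is the complement of the preceding T.
Dct, 150 bases before the start (chr14:118052379-118052408, minus strand): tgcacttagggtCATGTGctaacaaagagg
Dct, 232 bases before the start (chr14:118052461-118052490, minus strand): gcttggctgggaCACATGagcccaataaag
Tyrp1, 46 bases before the start (chr4:80834155-80834184, plus strand): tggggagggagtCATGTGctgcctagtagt
Tyr, 21 bases before the start (chr7:87493516-87493545, minus strand): gaaaaagttagtCATGTGctttgcagaaga

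Mitf itself had windows at 3 RefSeq starts on the plus strand of chromosome 6, at 97807058, 97929817 and 97991783. The 160 bases before the first and the last of them are shown to set the upstream start beside the melanocyte start. The capitals mark TGACGTCA, the full CRE motif bound by CREB, which is found in 1.79% of all windows, and it lies 153 bases before the last start.
Mitf first start (chr6:97806898-97807057, plus strand): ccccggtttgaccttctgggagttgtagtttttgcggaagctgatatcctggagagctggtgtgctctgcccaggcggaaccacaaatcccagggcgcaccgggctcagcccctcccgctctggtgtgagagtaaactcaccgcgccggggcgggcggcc
Mitf last start (chr6:97991623-97991782, plus strand): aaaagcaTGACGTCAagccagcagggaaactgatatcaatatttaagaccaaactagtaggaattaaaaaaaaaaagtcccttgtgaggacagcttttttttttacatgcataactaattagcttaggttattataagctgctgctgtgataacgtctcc
These stretches differ in composition, with 64.4% G and C before the first start and 35% before the last. The deposited counts are sums per gene, so RNA from these starts could not be separated. A match of letters describes the sequence and is no measure of binding.

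Total counts per library ran from 20578309 to 23670507, and TMM factors from 0.981 to 1.03. A level of 3 counts, taken as the floor, was 0.128 to 0.145 CPM, counts scaled to the same library total. Floors and counting intervals cover counting error only. All CPM values are scaled by TMM factors. The targeted gene Itga3 averaged 298 ± 63.9 CPM in WT against 129 ± 5.22 in KO libraries (SD, n = 3). All 12 keratinocyte markers were above the floor in every library, and Krt5, a keratin of basal keratinocytes, led them with 14267 to 23976 CPM. In edgeR 146 of the 21681 genes (0.673%) had an adjusted p below 0.05 between KO and WT, 100 higher (0.461%) and 46 lower (0.212%) in KO, and these are the genes called below.

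Mitf (ENSMUSG00000035158, chromosome 6, 97807058 to 98021349) had 1247, 1603 and 1201 counts in WT and 695, 790 and 611 in KO libraries. In CPM these were 57.2, 73.4 and 53.0 in WT and 29.5, 37.0 and 29.6 in KO, or 61.2 ± 10.8 and 32.0 ± 4.33 (SD, n = 3). WT b was the highest library, and the highest KO library lay below the lowest WT library. The log2 fold change, KO minus WT, was −0.93 (standard error, SE, 0.14 from edgeR). Without WT c it was −1.03, and without KO a or KO c −0.88 each. Mitf was the 1 gene of the 10 that edgeR called, a share to be set beside the 0.673% of all genes called in either direction, the 0.212% called lower and the 0.461% called higher, from which nothing is read because this difference chose the gene. The call did not hold when WT c, KO a or KO c was left out. In RNA from sorted bulk cells, fewer cells of a type and less RNA per cell cannot be told apart.

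Tfe3 (chromosome X, 7762560 to 7775202) had 58.1, 61.7 and 63.6 CPM in WT and 76.7, 65.8 and 72.0 in KO libraries. All KO values were above all WT values, at 61.2 ± 2.76 CPM in WT and 71.5 ± 5.48 in KO (SD, n = 3), with a log2 fold change of 0.23 (SE 0.09), and the gene was not called. Tfeb (chromosome 17, 47737030 to 47792419) had 12.9, 15.2 and 12.3 CPM in WT and 13.3, 15.2 and 16.1 in KO libraries, so the genotypes overlapped, with a log2 fold change of 0.14 (SE 0.14). Of the 10 genes, Mitf alone had every KO library below every WT library, as 8.23% of all tested genes did, and Tfe3 alone had the reverse, as 8.03% did. The fourth relative, Tfec, was not analysed here.

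The pigment enzymes stood at a few CPM or less. Dct (chromosome 14, 118012792 to 118052246), with the highest CPM of the pigment genes, had 4.82, 4.17 and 7.19 CPM in WT and 6.59, 5.49 and 6.87 in KO libraries. WT c was the highest of all, and WT a and b were below all KO libraries. Its log2 fold change was 0.23 (SE 0.22). Tyrp1 (chromosome 4, 80834123 to 80851719) had 0.964, 1.01 and 1.76 CPM in WT and 1.79, 1.31 and 2.18 in KO libraries, with a log2 fold change of 0.49 (SE 0.33). WT c lay among the KO libraries, and WT a and b were below them. Tyr (chromosome 7, 87427405 to 87493411) rested on 0, 9 and 11 counts in WT and 7, 11 and 7 in KO libraries, too few to show a difference of moderate size. The 0 in WT a allows a level of up to 0.138 CPM.

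Pmel (chromosome 10, 128706258 to 128720238) had 0.551, 2.15 and 3.84 CPM in WT and 2.30, 2.63 and 1.98 in KO libraries. The WT libraries were spread on both sides of the KO libraries, and the log2 fold change was 0.08 (SE 0.48). WT a was the lowest library in Pmel, and without it the log2 fold change was −0.37. Mlana (chromosome 19, 29697921 to 29708448) had 0, 5 and 2 counts in WT and 2, 7 and 7 in KO libraries and passed the floor in 3 of 6, so no difference was detectable at this depth. The 5 pigment genes together had 6.33, 7.97 and 13.4 CPM in WT and 11.1, 10.3 and 11.7 in KO libraries. The KO libraries lay within the WT range, and WT libraries were spread more widely (SD 3.68 CPM) than KO libraries (SD 0.718 CPM).

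Kitl (chromosome 10, 100015630 to 100100413), the ligand, had 101.7, 59.6 and 108 CPM in WT and 96.0, 95.8 and 76.9 in KO libraries. The means were 89.8 ± 26.3 and 89.6 ± 10.9 CPM (SD, n = 3), with a log2 fold change of −0.00 (SE 0.18) and WT b as the lowest library. Kit (chromosome 5, 75574916 to 75656722), the receptor, had 1.38, 1.01 and 2.16 CPM in WT and 1.02, 1.59 and 1.60 in KO libraries, with a log2 fold change of −0.12 (SE 0.34). The WT libraries spanned all KO values. Without WT c the log2 fold change of Kit was 0.23 and that of Kitl 0.15, and without WT b that of Kitl was −0.23. Per length of merged exons, RNA of the ligand exceeded that of the receptor 75.3 to 111 times in WT and 72.7 to 142 times in KO libraries.

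**Figure D1:**
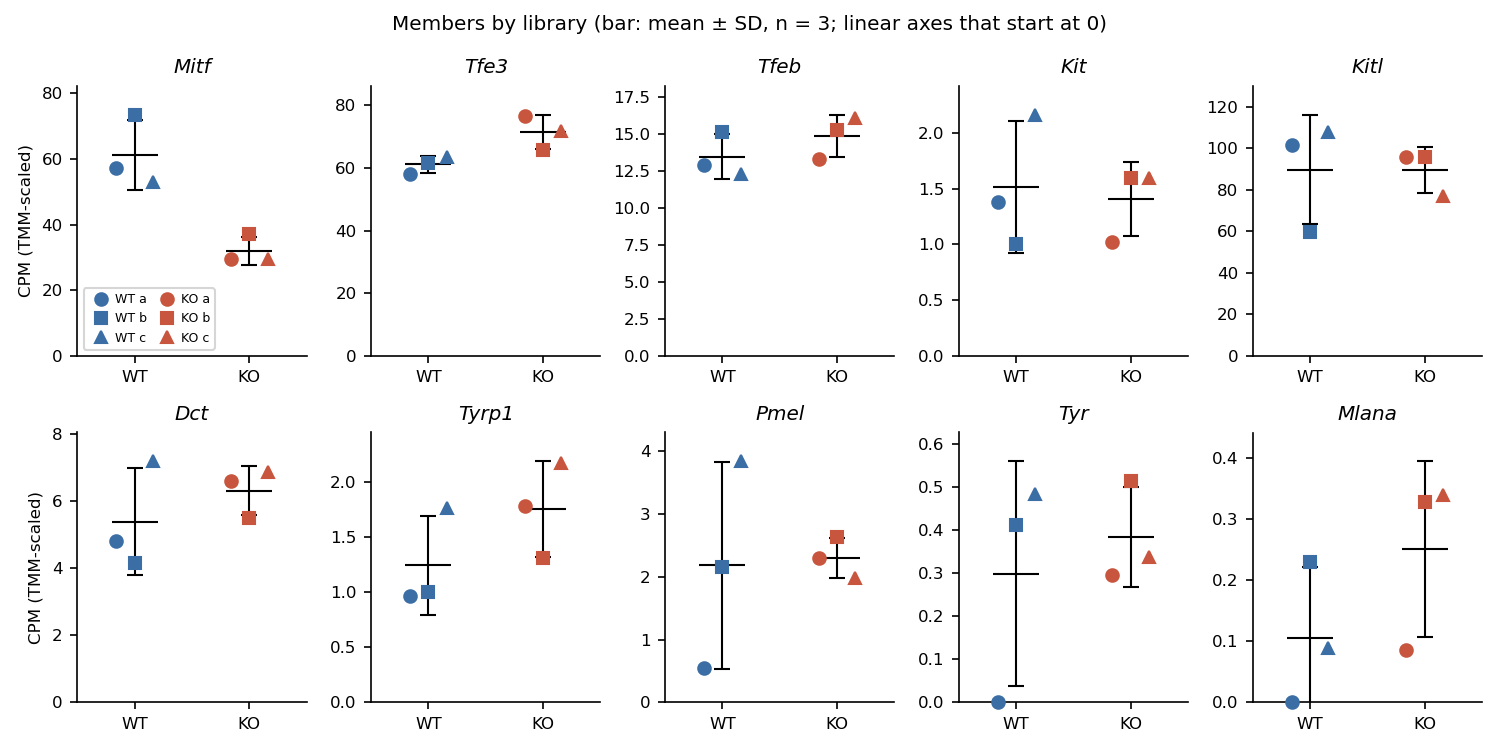
CPM of the 10 genes (TMM-scaled, vertical axes, each from 0) in the 3 WT (blue) and 3 KO (red) libraries, with a horizontal line for the mean and a bar for the SD (n = 3), cut at 0 for Mlana. Mitf lies at 53.0 to 73.4 CPM in WT and 29.5 to 37.0 in KO, Tfe3 is higher in every KO library, and the other 8 genes overlap between the genotypes.

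Levels of different genes were compared per kilobase of merged exons. In WT libraries the order was Kitl (15.2 ± 4.45 CPM per kb, SD, n = 3), Mitf (9.88 ± 1.74), Tfe3 (6.60 ± 0.298), Tfeb (2.37 ± 0.266), Pmel (0.951 ± 0.717), Dct (0.915 ± 0.269), Tyrp1 (0.440 ± 0.159), Kit (0.170 ± 0.0661), Mlana (0.100 ± 0.109) and Tyr (0.0421 ± 0.0368). Kitl and Mitf, Pmel and Dct, Kit and Mlana, and Mlana and Tyr were neighbours in this order whose WT libraries overlapped. In KO libraries Tfe3 (7.72 ± 0.591) stood above Mitf (5.17 ± 0.699), Dct and Pmel were again close (1.07 ± 0.124 and 1.00 ± 0.140), Tyrp1 followed at 0.622 ± 0.153, and Mlana (0.237 ± 0.136) and Kit (0.158 ± 0.0373) overlapped. Kitl, at 15.2 ± 1.85, and Tyr, at 0.0540 ± 0.0163, kept the ends of the order. By mean level per length over the 6 libraries, Kitl was at percentile 83.66 of the tested genes with a length, Mitf at 71.45, Tfe3 at 70.45, Tfeb at 54.98, Dct at 46.44, Pmel at 46.27, Tyrp1 at 41.98, Mlana at 33.09, Kit at 32.86 and Tyr at 22.22.

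**Figure D2:**
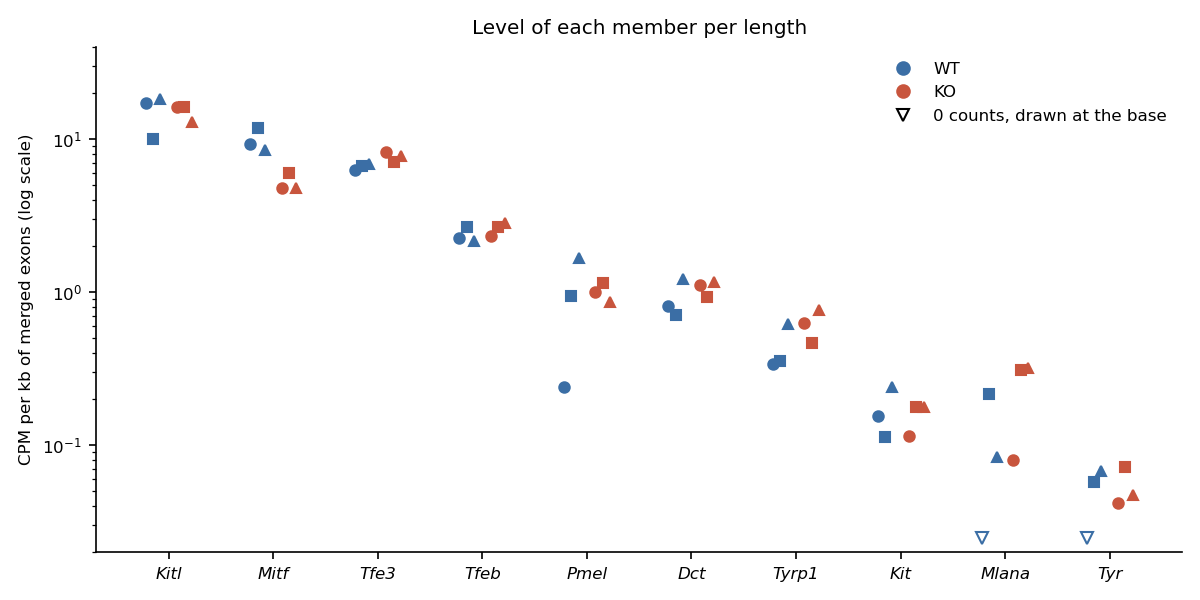
CPM per kb of merged exons (vertical axis, log scale) of the 10 genes, ordered by their WT mean, with 3 WT (blue) and 3 KO (red) libraries each and the marker shape giving the library letter. Kitl, Mitf, Tfe3 and Tfeb stand above all 6 other genes in each library, and open triangles at the base mark the 0 counts of Mlana and Tyr in WT a.

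Mitf was above Tfe3 in each WT library and below it in each KO library, on the scale per length. The summed level of Mitf, Tfe3 and Tfeb was 18.9 ± 2.03 CPM per kb in WT and 15.5 ± 0.224 in KO (SD, n = 3). Mitf gave 51.9%, 55.9% and 48.6% of this sum in WT and 31.0%, 37.9% and 31.0% in KO libraries. Tfe3 gave 35.3% ± 3.79 in WT and 49.8% ± 4.43 in KO, and Tfeb 12.6% ± 0.225 and 16.9% ± 1.60. These shares follow from the levels above and include the difference in Mitf that chose the gene.

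**Figure D3:**
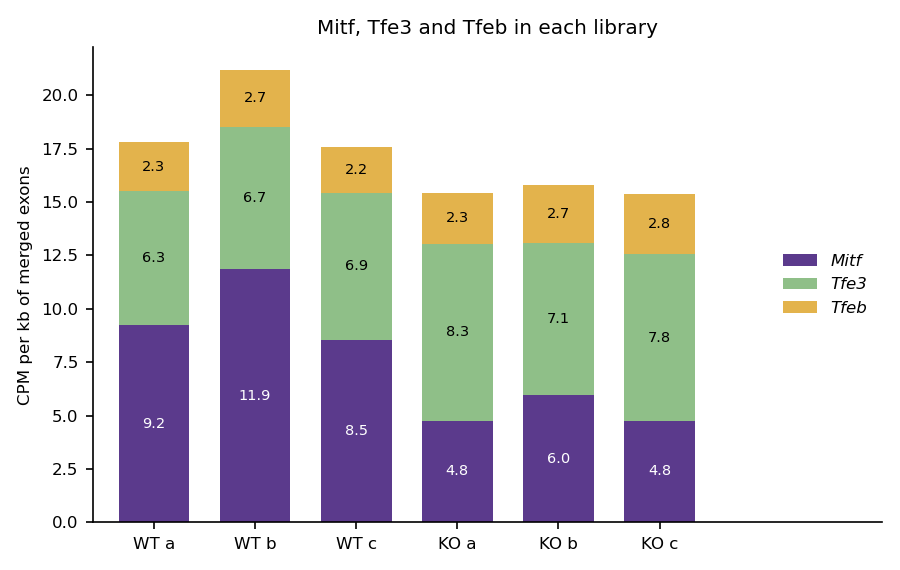
Stacked levels of Mitf, Tfe3 and Tfeb (CPM per kb of merged exons, vertical axis from 0) in each of the 6 libraries, with each gene's level printed in its segment. The Mitf segment makes up 48.6% to 55.9% of the bar in WT and 31.0% to 37.9% in KO libraries.

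The levels were next set side by side by library, to see whether Mitf followed pigment cell genes or keratinocyte genes. In WT libraries Mitf was highest in b and lowest in c, while the 5 pigment genes were highest in c and lowest in a. In KO libraries Mitf was highest in b, where the summed CPM of the 5 pigment genes was lowest. Per length their sum was instead lowest in KO a, at 2.87, 2.92 and 3.17 CPM per kb in KO libraries. The summed level of the 12 keratinocyte markers was 67304, 47654 and 60364 CPM in WT and 52016, 60569 and 54471 in KO libraries. It was lowest in WT b, where Mitf was highest, and highest of the KO libraries in KO b, as Mitf was. The library order of Mitf was thus that of neither sum in WT. In KO it was that of the keratinocyte sum, b, c and a, though Mitf was nearly equal in a and c (29.5 and 29.6 CPM). The summed bulge keratinocyte markers also had this order in KO, and among WT libraries they were lowest in b. With 3 libraries of each genotype, these orders are a description.

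Mitf per length was 6.60, 5.20 and 2.33 times the sum of the 5 pigment genes in WT and 1.66, 2.04 and 1.51 times in KO libraries. Against Dct alone the ratio was 11.3, 16.8 and 7.01 in WT and 4.27, 6.42 and 4.09 in KO libraries. WT c, with the most pigment cell RNA, had the lowest ratio of the WT libraries, and all WT ratios were above all KO ratios. These ratios, too, include the difference in Mitf that chose the gene, and nothing further is read from them. Of the 10 defining melanocyte genes, 9 were measured and 4 were above the floor in every library (Dct, Pmel, Tyrp1 and Sox10, a transcription factor of the neural crest), while Gpr143 was at or under the floor in all 6. Their summed level was 7.07 to 14.99 CPM in WT and 11.9 to 13.3 in KO libraries. Its log2 difference, KO minus WT, was 0.36, and with each library left out it ranged from 0.12 to 0.67.

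**Figure D4:**
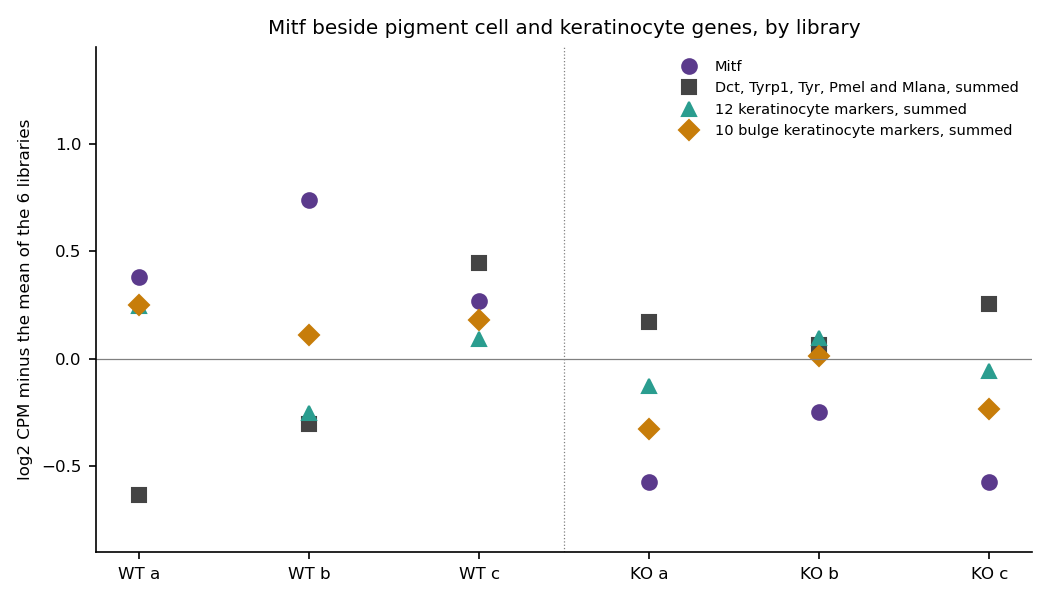
Log2 CPM minus the mean of the 6 libraries (vertical axis) for Mitf and for the summed CPM of 5 pigment genes, 12 keratinocyte markers and 10 bulge keratinocyte markers, by library. Mitf lies at 0.27 to 0.74 in WT and −0.57 to −0.25 in KO, while the pigment gene sum goes from −0.63 in WT a to 0.44 in WT c and lies at 0.06 to 0.25 in KO.

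In all, 3 marker sums had no overlap between the genotypes, as Mitf had none, and the other marker sums overlapped. The 10 bulge keratinocyte markers summed to 20324 to 22397 CPM in WT and 15034 to 19014 in KO libraries, with all 10 above the floor in each. Krt15 contributed most to this sum and overlapped between the genotypes, while Postn, which encodes the matrix protein periostin, had the largest difference in CPM, with 3511, 7558 and 5947 in WT and 3119, 3555 and 2886 in KO libraries (edgeR log2 fold change −0.83, SE 0.22, adjusted p = 0.124, called by DESeq2). Without Postn the sums overlapped, at 12766 to 18886 CPM in WT and 11916 to 15459 in KO libraries. Cd34, a surface marker of bulge stem cells, was the 1 gene of the 10 that edgeR called, beside 0.212% of all genes called lower. It went from 806 to 881 CPM in WT to 399 to 625 in KO (edgeR log2 fold change −0.72, SE 0.14, adjusted p = 0.0462). The call of Cd34 was lost in 7 of 12 alternatives. Fibroblast and dermal papilla markers summed to 123.6 to 179.4 CPM in WT and 55.2 to 94.3 in KO libraries, with 5 of 9 above the floor throughout, Col1a1 and Col1a2 making up most of the sum and Lum, Alx4 and Corin at or under the floor in all 6. The list did not move as one: 6 of the 9 log2 fold changes were positive, with a median of 1.28. At an unadjusted p below 0.05 from edgeR, 3 were lower and 3 higher (33.3% each), beside 5.97% and 5.58% of all genes. Without Col1a1 and Col1a2 the sums were 3.35 to 10.3 CPM in WT and 7.36 to 20.1 in KO libraries. Langerhans and T cell markers summed to 65.5 to 99.3 CPM in WT and 29.6 to 58.6 in KO libraries, with 5 of the 7 measured above the floor throughout, and Thy1 (58.4 to 85.9 and 21.8 to 47.0 CPM) gave most of it. Without Thy1 the sums overlapped, at 7.05 to 13.4 CPM in WT and 7.82 to 11.8 in KO libraries, and the median log2 fold change of the list was −0.04. These sums without leading genes were added after the data were seen. The part of these cells in the Mitf difference was not tested.

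Mast cells and macrophages use Mitf too, and their markers were low. Of 9 mast cell markers 3 were measured, summing to 0.597 to 1.42 CPM in WT and 0.51 to 1.21 in KO libraries, with Hdc at the top and Cma1 at or under the floor in all 6. Macrophage markers, 7 of 9 measured, summed to 5.07 to 6.47 CPM in WT and 4.46 to 7.97 in KO libraries, with Cd68 at the top and Lyz2, Emr1 and Mrc1 at or under the floor in all 6. Sums were 173 to 225 and 190 to 227 CPM for Schwann cell genes, most of it Erbb3, 1.01 to 1.83 and 1.31 to 1.36 CPM for Merkel cell genes led by Piezo2, and 2.38 to 3.53 and 2.76 to 3.56 CPM for endothelial genes led by Kdr, each given for WT and then KO. The proliferation list, led by Mki67, summed to 499 CPM in WT a and to 927 and 1159 in WT b and c, against 736 to 1040 in KO libraries. WT a was thus the lowest library for dividing cell genes as well as for the pigment genes, and without it the log2 fold change of Mitf was −0.97.

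The wider melanocyte list of 20 genes had 19 measured. Its highest genes were Myo5a, a motor that carries melanosomes and other cargo, with 103 to 112 CPM in WT and 111 to 115 in KO libraries, Rab38, a small GTPase of melanosome biogenesis, with 36.7 to 40.7 and 31.1 to 36.7, and Gpnmb, a glycoprotein of melanosomes and lysosomes. Of the WT libraries, Myo5a and Rab38 were highest in c. Gpnmb had 6.56, 16.9 and 6.66 CPM in WT and 3.57, 4.55 and 2.76 in KO libraries, so that all KO values were below all WT values. Gpnmb was thus highest in b in both genotypes, as Mitf was, and it was not part of the pigment gene sum above. In edgeR its log2 fold change was −1.46 (SE 0.35, with an adjusted p of 0.0888), and −0.86 without WT b. No gene of the list was called by edgeR or by limma-voom, and 1 (Gpnmb) was called by DESeq2, which called 546 of all 21681 genes. In edgeR 2 genes (10.5%, Gpnmb and S100b) were lower at an unadjusted p below 0.05 and 0 higher. Over all genes these shares were 5.97% and 5.58%. In 3 of the 19 (15.8%) every KO library was below every WT library, in 0 above, beside 8.23% and 8.03% of all genes. The median log2 fold change was 0.08, beside 0.00 over all genes tested.

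Genes of lysosomes and autophagy with CLEAR elements, the DNA motif through which TFEB, TFE3 and MITF act on them, were above the floor in every library in all 31 cases. Of these, edgeR called 1, lower in KO, limma-voom called none and DESeq2 called 2. Over all 21681 genes tested, edgeR called 0.212% lower and 0.461% higher, limma-voom called 24 genes and DESeq2 546. Hexa, a lysosomal enzyme subunit, had 26.2 to 29.6 CPM in WT and 17.3 to 21.3 in KO libraries (edgeR log2 fold change −0.49, SE 0.12, adjusted p = 0.105), and it was called by DESeq2. In 8 of the 31 genes (25.8%) every KO library was below every WT library, in none above, beside 8.23% and 8.03% of all genes. At an unadjusted p below 0.05 there were 7 lower (22.6%) and 0 higher, beside 5.97% and 5.58% of all genes. These shares over all genes include 4965 genes at or under the floor in every library. They are thus not shares among genes of a like level. The list, too, was chosen with earlier results of these data known, so its shares are a description. Among the 8 were Hexa, Psap, Mcoln1, Flcn, Fnip1, Fnip2 and Ppargc1a, and the median over the list was −0.07, with Ctsd, its most abundant gene, at 0.02.

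The 16 regulators of MiT/TFE localization include the kinase mTOR and the folliculin complex, which keep these factors in the cytoplasm. None was called by edgeR, limma-voom or DESeq2. At an unadjusted p below 0.05 in edgeR, 2 were lower (12.5%), Flcn at −0.39 and Fnip1 at −0.28 log2, and 0 higher. Over all genes the shares were 5.97% lower and 5.58% higher. Flcn and Fnip1 are also in the CLEAR list and were counted there. The 12 regulators and cofactors of MITF had none called by the same tools. At an unadjusted p below 0.05, 1 was lower (8.33%) and 0 higher. This was Onecut2, with a mean of 0.334 CPM in WT and 0.0586 in KO. It rested on 5, 13 and 4 counts in WT and 3, 0 and 1 in KO libraries, at or under the floor in each KO library. Of the genes whose proteins switch on the melanocyte start of Mitf, Pax3 and Sox10 were low. Pax3 had 0.0916 to 0.661 CPM in WT and 0.255 to 1.08 in KO libraries, and Sox10 0.412 to 1.01 and 0.68 to 1.36. The most abundant gene of the 12 was Ctnnb1, with 1582 CPM in WT and 1786 in KO on average. CREB, the factor of the TGACGTCA motif above, was represented by Creb1 with 85.2 CPM in WT and 84.7 in KO on average. The 18 genes of KIT signalling had none called by any of the tools. At an unadjusted p below 0.05, 1 was higher (5.56%) and 0 lower, beside 5.58% and 5.97% of all genes.

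Among signals from keratinocytes to pigment cells, 12 of 14 were measured. Of these edgeR called 1, higher in KO, beside 0.461% of all genes called higher. This was Edn2, which encodes endothelin 2. It had 10.5, 14.0 and 10.8 CPM in WT and 29.2, 24.5 and 34.6 in KO libraries (edgeR log2 fold change 1.32, SE 0.16, adjusted p = 0.00455). It lost the call with both stricter count filters, without WT c (adjusted p = 0.244 from edgeR) and without KO a (adjusted p = 0.106). Fgf2, a growth factor, had 0.309 to 0.505 CPM in WT and 0.985 to 2.00 in KO libraries (adjusted p = 0.066 from edgeR). DESeq2 called Fgf2 and Edn2, among its 546 calls over all 21681 genes. In 5 of the 12 genes (41.7%), among them Edn2, Fgf2, Tgfb1 and Bmp4, every KO library was above every WT library, beside 8.03% of all genes, and the median over the list was 0.40. Kitl, its most abundant gene, was not among them. The share over all genes again includes those at or under the floor in every library, as 2 of the 12 were. This list was also chosen with earlier results of these data known, so its shares are a description. Edn3 and Asip, the endothelin and the pigment-type switch that act on melanocytes from the skin, were not analysed here.

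**Figure D5:**
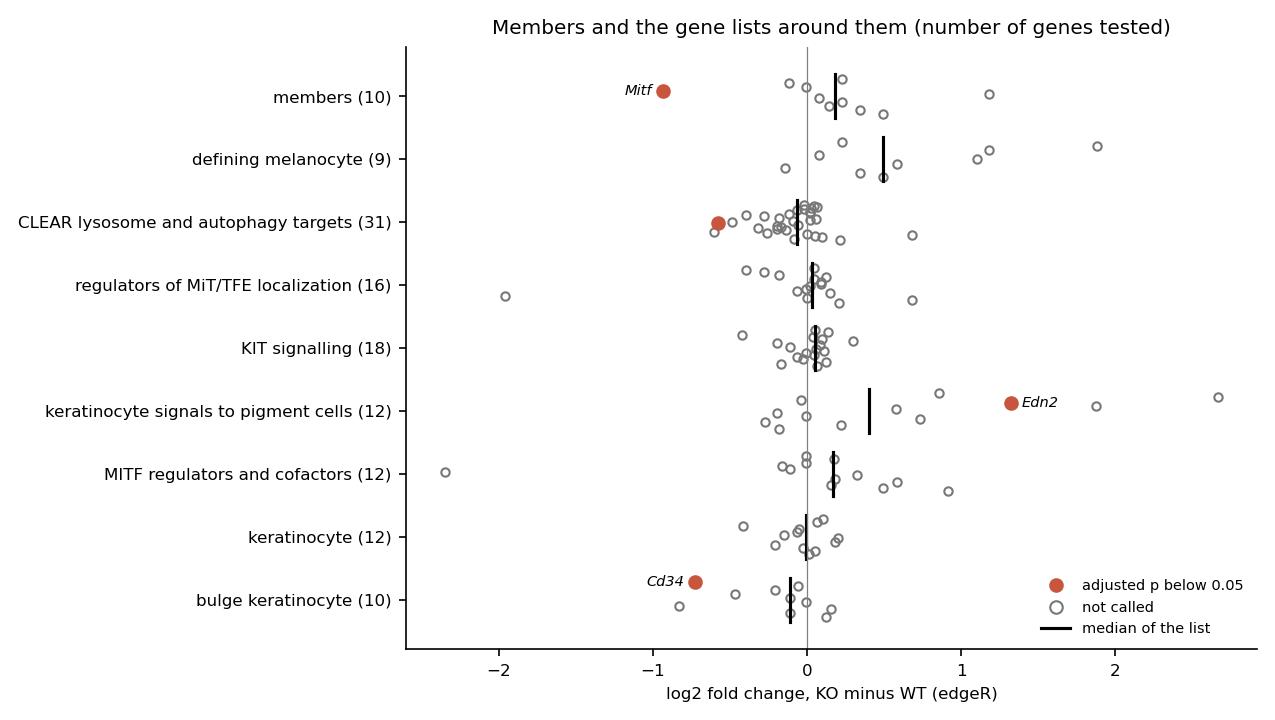
Log2 fold change, KO minus WT, from edgeR (horizontal axis) of each gene of the 9 lists shown, with called genes filled, the rest as open circles and a line at the median of each list. Mitf, Edn2 and Cd34 are named, and the medians of these 9 lists lie between −0.11 and 0.49.

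The genes whose level over the 6 libraries was most like that of Mitf were found by the root mean square difference between log2 CPM profiles, each centred on its mean, among 8574 genes with a mean log2 CPM above 4. They were 4933439C10Rik (difference 0.117), Dst (0.121), Abca5 (0.130), Prlr (0.143) and Ppap2a (0.144), all with every KO library below every WT library. Dct, Tyrp1, Tyr, Pmel, Mlana, Gpnmb, Kit and Tfeb had a mean log2 CPM below this cut-off, with Tfeb the highest of them at 3.83. None of them could therefore be among the nearest genes. Dst, which encodes dystonin, a linker of keratin filaments to hemidesmosomes in keratinocytes, had 1882, 2580 and 1695 CPM in WT and 981, 1443 and 1176 in KO libraries, so that WT b was the highest and KO b the highest of its genotype, as for Mitf. Prlr, the prolactin receptor, had 115, 122 and 99.8 CPM in WT and 62.1, 85.3 and 59.6 in KO libraries, in the same order as Mitf in WT. On the same scale Tfeb differed from Mitf by 0.550, Tfe3 by 0.617, Kit by 0.635, Kitl by 0.644, Dct by 0.722, Tyrp1 by 0.855, Pmel by 1.04, Mlana by 1.07 and Tyr by 1.15. For genes of few counts this difference includes their counting error. The Mitf profile includes the difference between genotypes that chose the gene. Genes nearest to it were therefore largely bound to share that difference, and genes without it to lie farther off. The likeness is over 6 points, and nothing further is read from it.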

How the data were processed

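Strand-specific libraries of polyadenylated RNA were made from sorted keratinocytes. The authors aligned single reads with TopHat 2.1.0 and Bowtie 1.1 to mouse build GRCm38, and deposited counts of uniquely mapped reads per Ensembl 77 gene, without normalization. Columns carried the genotype and mouse numbers but not the sample numbers of the titles. The p-values set the difference between genotypes against the spread between these libraries. The 21681 genes with any count were fitted in R 4.3.3 by edgeR 4.0.16 (TMM, glmQLFit, glmQLFTest, no covariate) with Benjamini-Hochberg adjustment, a call being an adjusted p below 0.05. Alternatives were library size only, upper-quartile factors, DESeq2 1.42.0, limma-voom (limma 3.58.1), filterByExpr (13811 genes), a minimum of 10 counts per library (13054 genes), each library left out, and length of the longest transcript. Exon lengths came from GENCODE M21, which held 98.9% of the gene identifiers. Code was tested on simulated counts. The members and the gene lists were chosen with earlier results of these data known. Genes named were the members, Tfec, Itga3, called genes of the lists, the most abundant gene of each marker list, the 3 highest of the melanocyte list and the 5 nearest in profile to Mitf. Some results that this rule covers are left out here. Other genes were picked for mention with their values in view.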

Additional observations from a re-analysis of the deposited data

How the results depend on the processing

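Mitf was lower in KO under all 12 alternatives (log2 fold change −1.04 to −0.78), and past the threshold in 6 of them. It was not past it with limma-voom (−0.93), filterByExpr (−0.94) or a minimum of 10 counts per library (−0.94), where 0 of the 10 genes were called, nor without WT c, KO a or KO c, so the count with a library left out was 0 to 1. Both count filters removed Tyr and Mlana, which were thus not tested there. Over all genes the 146 calls became 546 with DESeq2, 24 with limma-voom, 15 with filterByExpr, 12 with the minimum of 10 counts, and 5 (without WT c) to 521 (without WT a) with a library left out. A count was also kept over the CLEAR, localization, KIT, keratinocyte signal, MITF regulator, proliferation and melanocyte lists, members left out. Its 2 calls became 1 with library size only, 5 with DESeq2, 1 with limma-voom and 0 with either filter, and 0 to 8 with a library left out. The bulge keratinocyte list with Cd34 was not in this count. By the longest transcript, levels in CPM per kb were 12.5 (WT) and 6.57 (KO) for Mitf and 1.56 (WT) and 1.83 (KO) for Dct. The other 9 members were called under no alternative that could be fitted for them. Where a library was left out, Pmel, Kit, Kitl and Tyr took either sign. The causes were not tested. No paired analysis was possible because the libraries are from different mice, and the columns do not carry the sample numbers of the titles. Depth limits Tyr and Mlana most, with at most 11 counts in any library.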
